A study of Mus musculus with 2 samples.

Results

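The genes described here encode the nuclear subunits, isoforms and named assembly proteins of respiratory complexes III and IV and of ATP synthase, together with cytochrome c. They were chosen by symbol: those starting with Uqc, Cox or Atp5, plus Cyc1 and Cycs, with 1 or more protein_coding transcripts, and 49 of 55536 annotated genes met this. The rule leaves out Cox4i1, Cox4i2, Cox6a1, Cox6a2, Cox7a1, Cox7a2, Cox7a2l, Cox8a and Cox8b, so complex IV is covered only in part. The 49 hold 48 distinct symbols, since Atp5o stands under 2 identifiers. The second of these, with 1 transcript and 6% of its 31-base sequence words found in no other gene, held 0.13 and 0 estimated counts and was kept out of the medians.

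The samples were total RNA of the gastrocnemius, a calf muscle, sequenced from 2 male B6CASTF1/J mice, offspring of a cross between the strains C57BL/6J and CAST/EiJ. Both were adult, 8 to 10 months old, no treatment is named, and 300 ng of RNA entered each library. The labels call them animals 2 and 4 (here replicates 1 and 2) under 1 shared donor identifier, so there is 1 group and a test between them compares 2 libraries, not conditions. The estimated counts on genes summed to 36792611 (replicate 1) and 37752249 (replicate 2), and the muscle genes Acta1 (17309 and 17814 TPM), Ckm (17288 and 18464 TPM), Ttn (4473 and 3315 TPM) and Myh4 (10879 and 11937 TPM) were abundant in both. Values after ± are SDs over the 2 animals, and TPM is a relative level corrected for transcript length.

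Complex III passes electrons from ubiquinol to cytochrome c, the small soluble carrier, and complex IV passes them on to oxygen. Both pump protons across the inner mitochondrial membrane, and ATP synthase uses the return flow to make ATP: protons turn a ring of c subunits in the membrane, and the ring drives the catalytic F1 head. Each of these complexes is built from nuclear subunits and from a few encoded in the mitochondrion, with dedicated assembly factors. In skeletal muscle they are most abundant in oxidative fibres.

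The 49 genes together held 12320 TPM in replicate 1 and 12441 TPM in replicate 2, which was 2.86% and 2.84% of the TPM on nuclear protein-coding genes. As shares of all gene counts they took 0.670% and 0.746%. Of the 49 genes, 45 reached a mean of 10 counts, 44 a mean of 100 counts and 31 an average of 100 TPM. In whole muscle, fewer cells of a type and less RNA per cell cannot be told apart.

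**Figure D1:**
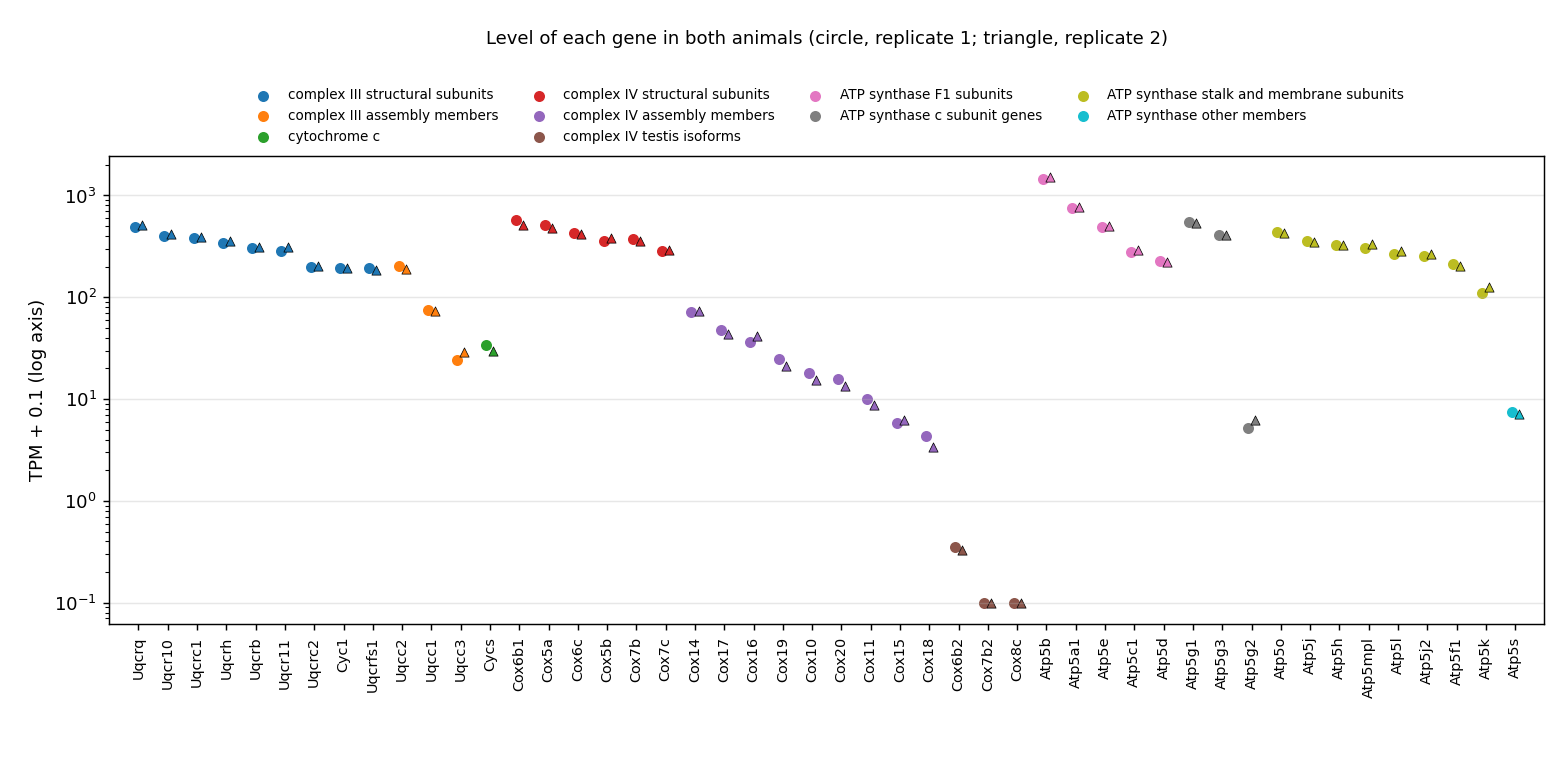
TPM plus 0.1 (log axis) of each gene in replicate 1 (circles) and replicate 2 (triangles), grouped and coloured by role. Structural subunits lie mostly between 190 and 546 TPM, with Atp5b and Atp5a1 above this range and Atp5k and Atp5g2 below it. Most assembly genes lie lower than most structural subunits, and the testis isoforms lie at or near 0.

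Structural subunits of complex III were present within a narrow range, as sums over transcripts of all classes. Over the 9 genes the median was 305 TPM in replicate 1 and 313 TPM in replicate 2 (309 ± 5.44, SD, n = 2), and gene means ran between 190 and 499.5 TPM. Uqcrq, a small membrane subunit, was highest at 489 and 510 TPM, followed by the small subunit gene Uqcr10 at 397 and 421 TPM. The core proteins, which carry no redox centre and descend from a processing peptidase, stood apart from each other: Uqcrc1 held 380 and 394.5 TPM, and Uqcrc2 held 200 and 202 TPM. The nuclear redox subunits were the lowest of the 9 in the first quantification; in the second, Cyc1 (268 TPM) stood above Uqcrc2 (215 TPM). Cyc1, which encodes cytochrome c1, held 193 and 192 TPM, and Uqcrfs1, which encodes the Rieske iron-sulphur protein, held 195 and 184 TPM. The remaining subunits lay between these, with Uqcrh, the hinge protein that helps cytochrome c1 bind cytochrome c, at 345 and 360 TPM, Uqcrb at 305 and 311 TPM, and Uqcr11 at 286 and 313 TPM.

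Cytochrome c itself was lower than any complex III subunit in this table. Cycs (chromosome 6, 50562563 to 50566538 in mm10, minus strand) held 34.0 TPM in replicate 1 and 29.5 TPM in replicate 2 (31.7 ± 3.17), and 70.8% of its 31-base words were unique to it. Its level depended on the quantification, as described with the copies and the transcripts of the gene.

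The 6 structural subunits of complex IV had the highest median of the 3 complexes in this quantification, at 399 TPM in replicate 1 and 398 TPM in replicate 2 (399 ± 0.689). As sums over transcripts of all classes, no subunit lay far from the rest. Of these sums, 73.2% and 75.6% for Cox5b and 71.0% and 69.4% for Cox7b lay on transcripts not classed protein_coding. Cox6b1, a subunit on the intermembrane side, held 574 and 517 TPM, and Cox5a, on the matrix side, 516 and 484 TPM. Cox6c held 428 and 418 TPM, the zinc-binding subunit gene Cox5b 357 and 379 TPM, Cox7b 370 and 357 TPM and Cox7c 285 and 288 TPM. The 3 testis isoforms were at or near 0: Cox6b2 had 2 counts in each library (0.25 and 0.23 TPM), and Cox7b2 and Cox8c had 0. A count of 0 allows up to 3 counts, or 0.0815 CPM (counts scaled to library size) in replicate 1 and 0.0795 CPM in replicate 2, for counting error only. All 7 testis marker genes were at 0 in both animals.

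ATP synthase had the widest range. Over its 16 structural genes the median was 318 TPM in replicate 1 and 327 TPM in replicate 2 (323 ± 6.49), with gene means between 5.63 and 1473 TPM. In the F1 head, the catalytic beta subunit gene Atp5b (chromosome 10, 128083273 to 128090391 in mm10, plus strand) held 1437 and 1509 TPM, and the alpha subunit gene Atp5a1 held 758 and 778 TPM. In the assembled enzyme these proteins are present in equal number. Of the Atp5b TPM, 32.6% and 35.2% lay on transcripts not classed protein_coding. The coding transcripts were closer, with Atp5b-201 at 968 and 978 TPM and Atp5a1-201 at 746 and 765 TPM. Subunits of the central stalk were lower: Atp5e (epsilon) held 485 and 497 TPM, Atp5c1 (gamma) 279 and 294 TPM, and Atp5d (delta) 229 and 221 TPM. In the peripheral stalk and membrane part, Atp5o, the subunit that confers oligomycin sensitivity, held 439 and 424 TPM. Atp5j (F6) held 359 and 346 TPM, Atp5h (d) 330 and 324 TPM and Atp5f1 (b) 210 and 202 TPM. The small membrane subunit genes were Atp5mpl at 306 and 330 TPM, Atp5l (g) at 266 and 285 TPM, Atp5j2 (f) at 257 and 263 TPM and Atp5k (e) at 110 and 127.5 TPM. The coupling factor gene Atp5s held 7.40 and 7.02 TPM.

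The c ring of ATP synthase is encoded by 3 genes, Atp5g1, Atp5g2 and Atp5g3, whose mature proteins are identical. The last 78 codons of the 3 coding sequences encode the same residues with different bases: of 234 bases, 36 differ between Atp5g1 and Atp5g2, 50 between Atp5g1 and Atp5g3, and 53 between Atp5g2 and Atp5g3. A stretch of these codons is shown because reads are assigned among the 3 genes by such differences. Capitals mark bases that differ from Atp5g1, and the sequences are those of the GENCODE transcripts:
Atp5g1: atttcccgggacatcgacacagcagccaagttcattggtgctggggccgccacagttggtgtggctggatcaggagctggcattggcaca
Atp5g2: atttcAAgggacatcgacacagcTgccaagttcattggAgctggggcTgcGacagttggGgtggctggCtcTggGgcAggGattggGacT
Atp5g3: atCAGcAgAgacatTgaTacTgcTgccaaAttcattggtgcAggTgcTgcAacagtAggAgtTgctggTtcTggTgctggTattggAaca

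In the first quantification the c subunit TPM was mostly on Atp5g1 and Atp5g3, and in the second Atp5g2 took 15.1% ± 1.24. In the first, Atp5g1 held 544 and 539 TPM, or 56.8% ± 0.00858 of the summed level of the 3 genes. Atp5g3 held 409 and 405 TPM, or 42.7% ± 0.0847. Atp5g2 held 5.14 and 6.12 TPM, or 0.590% ± 0.0761, from 81.42 and 109.5 estimated counts. Of the members compared, Atp5g2 differed most between the quantifications, as described with its copy.

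Assembly genes lay below the structural subunits of the complex they build. For complex III, the median of Uqcc1, Uqcc2 and Uqcc3 was 75.4 TPM in replicate 1 and 73.6 TPM in replicate 2. The median structural subunit was 4.04-fold and 4.25-fold higher (log2 2.05 ± 0.05). This assembly median is the level of Uqcc1 alone, with 95.2% and 91.6% of its TPM on transcripts not classed protein_coding. Assembly genes outside the symbol rule are not in these medians, so the folds of the 2 complexes depend on that rule. Uqcc2, which with Uqcc1 supports synthesis of cytochrome b, was level with structural genes at 203 and 191 TPM. For complex IV, the median of 9 genes was 18.1 TPM in replicate 1 and 15.4 TPM in replicate 2, and the median structural subunit was 22.1-fold and 25.9-fold higher (log2 4.58 ± 0.16). Cox14, which acts in the translation and early assembly of COX1, was highest at 71.1 and 73.6 TPM. The copper chaperone gene Cox17 held 47.5 and 44.0 TPM, and Cox16, which acts with the COX2 module, 36.5 and 41.4 TPM. The haem biosynthesis genes Cox10 and Cox15 held 18.1 and 15.4 TPM, and 5.67 and 6.16 TPM. Cox20, a chaperone of COX2, held 15.5 and 13.5 TPM, Cox11, needed for a copper site of COX1, 9.98 and 8.71 TPM, and Cox18, a membrane insertase, 4.28 and 3.25 TPM.

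Of the other proteins of these complexes outside the symbol rule, 30 assembly genes and regulators were found, with medians of 16.9 TPM in replicate 1 and 16.4 TPM in replicate 2. Ndufa4, which encodes a subunit now placed in complex IV, held 532 and 559 TPM, and Usmg5, a small ATP synthase membrane subunit, held 481 and 519 TPM. Both lay at the level of structural subunits, while the next genes, Slirp (70.5 and 75.0 TPM) and Higd2a (54.2 and 60.2 TPM), were lower. In the first quantification, the 6 subunits encoded in the mitochondrion were mostly far above the nuclear ones and differed widely from each other. Words that these 6 share with other genes were not counted, and their levels in the second quantification were not compared. mt-Co1 held 13696 and 12843 TPM, mt-Cytb 6197 and 6330 TPM, mt-Atp6 2515 and 3282 TPM, and mt-Co2 169 and 170 TPM. The complex II genes, none of them encoded in the mitochondrion, had medians of 224 and 229 TPM.

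Several of these genes have processed copies elsewhere in the genome, and reads from a gene and its copy can be told apart only where they differ. The sequences compared are those of the mm10 annotation, and differences on the CAST/EiJ chromosomes of these animals were not examined. Taking genes that shared 5% or more of the 31-base words of a member and held 20 or more counts, a rule set after the values were seen, 9 members had such a partner. Cox7c, a small structural subunit of complex IV on chromosome 13, shows how close they are. Its whole coding sequence of 192 bases is repeated without a difference in Gm12338, a processed pseudogene on chromosome 11 (75599763 to 75599954 in mm10). Gm10012, on chromosome 17, differs at 2 of the 192 bases, marked in capitals:
Cox7c: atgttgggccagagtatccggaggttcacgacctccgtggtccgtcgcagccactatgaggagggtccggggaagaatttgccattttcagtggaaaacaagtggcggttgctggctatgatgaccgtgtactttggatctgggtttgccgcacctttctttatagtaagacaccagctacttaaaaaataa
Gm10012: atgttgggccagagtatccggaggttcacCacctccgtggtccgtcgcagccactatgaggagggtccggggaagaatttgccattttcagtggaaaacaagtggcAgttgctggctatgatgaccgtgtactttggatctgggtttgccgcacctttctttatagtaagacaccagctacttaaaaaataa

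In the first quantification, made from alignments, Gm12338 held 1919 and 2271 estimated counts and Gm10012 414 and 445, against 3013 and 3431 for Cox7c. Gm12338 was only 192 bases long with an effective length of 92 bases, and its 828.5 and 865 TPM stood above the 285 and 288 TPM of Cox7c itself. In the second quantification, made from the reads and an index, Gm12338 held 0 in both animals, and Cox7c held 4947 and 5748 counts. The sum over the 3 genes differed little: the second quantification gave 0.925 and 0.935 of the first.

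Atp5g2 and Cycs had the same pattern. Gm10175, on chromosome 7, repeats all 441 coding bases of Atp5g2. In the first quantification it held 3295 and 3648 counts, which was 97.6% and 97.1% of the counts on the pair, and in the second 1325 and 1153 counts, or 38.3% and 29.6%. Atp5g2 held 2131 and 2746 counts in the second quantification, 26.2 and 25.1 times its counts in the first, while the summed counts of the pair were 1.02 and 1.04 times those of the first. Gm10053, on chromosome 19 and annotated as protein-coding, repeats all 318 coding bases of Cycs, and Gm10108 differs from them at 2. Partners took 66.1% and 67.4% of the Cycs counts in the first quantification and 43.2% and 44.4% in the second, and the sums in the second were 0.993 and 0.997 of those in the first. For these genes the counts of a gene together with its copies were stable between the quantifications, and the split between them was not. Which of the copies are transcribed in this muscle was not tested.

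**Figure D2:**
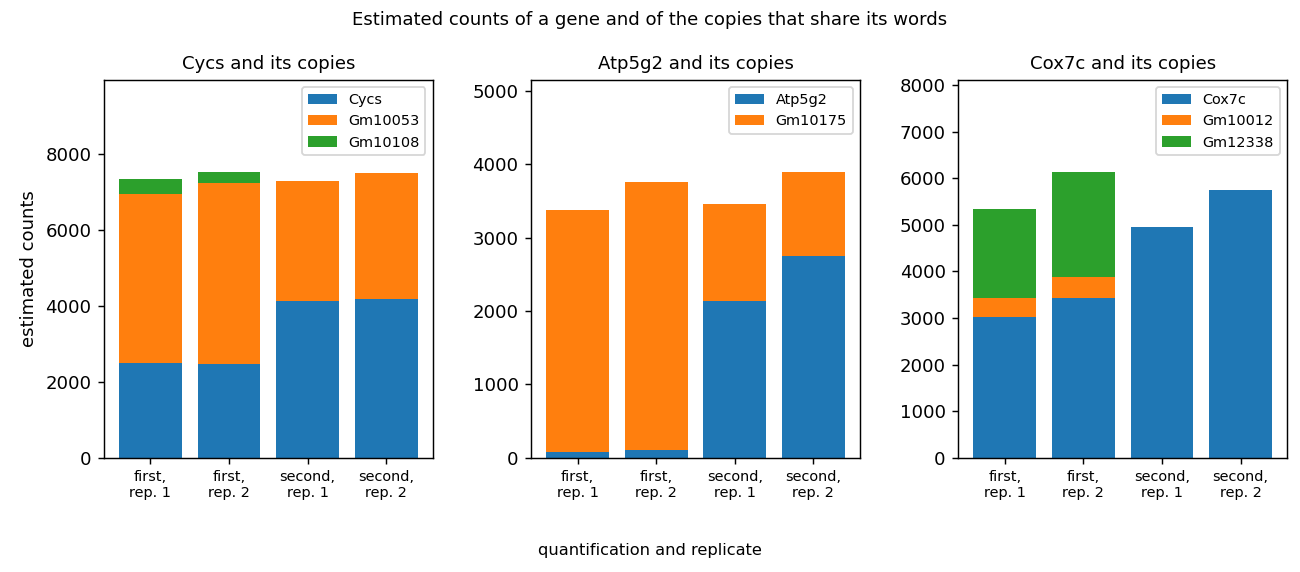
Estimated counts (linear axis, stacked bars) of Cycs, Atp5g2 and Cox7c and of the copies that share their words, in the first and second quantification and in both replicates. Bar heights change little between quantifications, whereas the part on the gene itself is smaller in the first, with 81.42 counts in the first and 2131 in the second for Atp5g2 in replicate 1.

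Other partners took less. Gm10250 held 985 and 1229 counts beside 4088 and 4578 for Atp5h, and 0 in the second quantification. Gm10039, with 1 of 411 bases different from the Atp5g1 coding sequence, held 265 and 341 counts, and 0 in the second. Gm11273 took 6.10% and 6.64% of the Cox5b pair and Gm12231 0.419% and 0.328% of the Atp5f1 pair. Gm5436 took 1.41% and 1.77% of the Atp5o pair in the first quantification and 6.66% and 6.42% in the second. Gm20498, a protein-coding locus that holds 55.2% of the words of Cox16, took 38.6% and 38.4% of that pair, so levels of Cox16 are uncertain in either table. With Gm10039 and Gm10175 added to their parent genes, the c subunit TPM split into 47.1% ± 0.249 for Atp5g1, 19.8% ± 0.158 for Atp5g2 and 33.2% ± 0.0917 for Atp5g3 in the first quantification. In the second the same sums gave 40.9% ± 0.452, 22.5% ± 0.191 and 36.6% ± 0.261.

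Across the members, TPM otherwise differed little between the quantifications. Of 44 members compared, 4 (9.09%) differed by more than 1.5-fold, against 263 of 6154 nuclear protein-coding genes (4.27%), and all 4 were lower in the first. The median ratio of the second over the first was 1.01 among members and 0.865 among nuclear protein-coding genes. The 2 sets thus lay at unlike distances from the 1.5-fold limits, and the directions of the 263 were not counted. Atp5g2 held 5.63 ± 0.693 TPM in the first and 137 ± 9.84 TPM in the second, 24.4-fold lower in the first. Cycs held 31.7 ± 3.17 and 143 ± 13.6 TPM, 4.50-fold lower in the first. Cox7c held 287 ± 1.88 and 518 ± 3.09 TPM, 1.81-fold lower in the first. Atp5e, with 99.9% unique words and no such partner, held 491 ± 8.36 and 799 ± 8.16 TPM, 1.63-fold lower in the first. Its counts were closer, at 3931 and 4560 in the first and 4680 and 5459 in the second, but the effective length used for it was 322 bases in the first and 170 bases in the second (replicate 1). To give the effective length, the first quantification took a median of 100 bases off transcripts of 300 or more bases. For transcripts of 300 to 600 bases, the second took a median of 252 bases in replicate 1 and 248 in replicate 2. Cycs, with a length of 3003 bases, is not short in the first quantification. Its counts in the second were 1.66 and 1.70 times those in the first, a smaller change than in TPM. Its transcript Cycs-201, of 607 bases, held 1.63 and 1.25 TPM in the first and 126 and 110 TPM in the second. The coding transcript Cycs-202 held 32.35 and 28.25 TPM in the first and 26.5 and 23.0 TPM in the second.

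**Figure D3:**
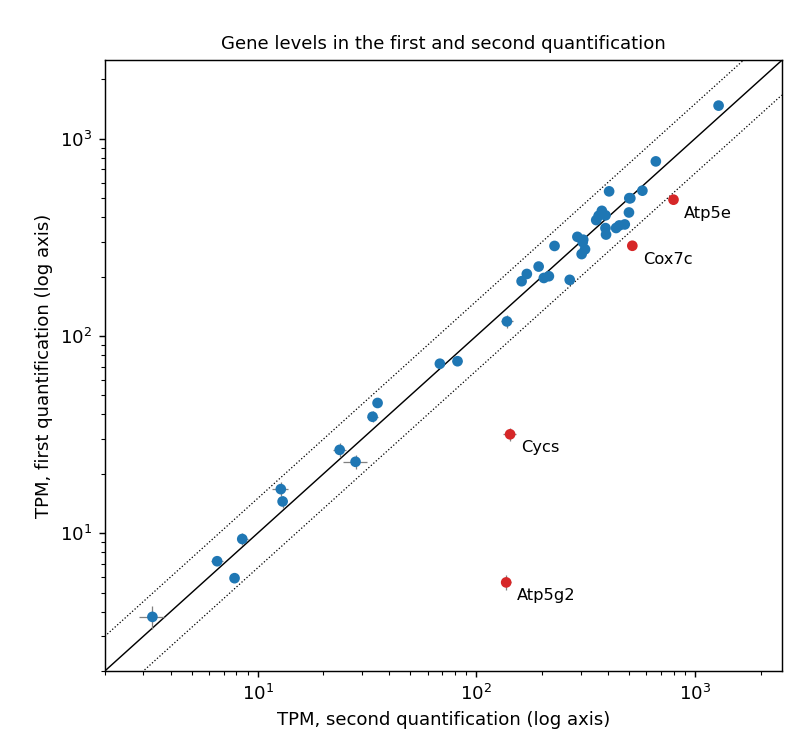
TPM in the first quantification (vertical, log axis) against the second (horizontal, log axis) for members at 1 or more TPM, as means over 2 animals with bars to the lowest and highest animal. Dotted lines mark 1.5-fold: Atp5g2, Cycs, Cox7c and Atp5e (red) lie below them.

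In many members 1 transcript held most of the TPM, to a degree that depended on the quantification. Among the 41 members that had several annotated transcripts (2 or more) and at least 5 TPM in each animal, the dominant transcript held a median of 92.6% in replicate 1 and 92.3% in replicate 2 (92.5% ± 0.233), and 22 exceeded 90%. The second quantification gave a median of 82.9% ± 0.287 and 15 exceeded 90%. By the mean over both animals, the quantifications named different dominant transcripts for 7 members: Atp5f1, Atp5g1, Atp5g3, Atp5h, Cyc1, Cycs and Uqcc1. Such changes were not counted over all genes. For Atp5g1 both choices held nearly all of the gene, with Atp5g1-202 at 99.5% and 99.3% in the first and Atp5g1-203 at 99.7% and 99.8% in the second. For Cycs, the coding transcript Cycs-202 of 3123 bases held 95.2% and 95.8% in the first. In the second, Cycs-201, a retained-intron transcript of 607 bases, held 82.6% and 82.7%. For Cyc1, Cyc1-201 of 1520 bases led at 70.7% and 73.0% in the first and Cyc1-202, of 737 bases and classed nonsense_mediated_decay, at 46.0% and 45.0% in the second. Atp5g3 changed between the similar coding transcripts Atp5g3-201 and Atp5g3-202. Atp5h-201 led Atp5h in the first, at 69.3% and 68.5%. In the second the leading transcript of Atp5h differed between the animals, with Atp5h-202 at 38.9% in replicate 1 and Atp5h-203 at 48.6% in replicate 2. The change in Atp5f1 rested on replicate 2: in the first quantification Atp5f1-203 held 48.5% and 49.9% and Atp5f1-201 48.7% and 48.8%, and in the second Atp5f1-201 led in both animals.

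For 7 members, chosen after their values were seen, at least 50% of the TPM lay on transcripts that the annotation does not class as protein_coding. How common this is over all genes was not computed. Atp5j had 93.1% and 93.7% there, nearly all on Atp5j-208, a transcript of 526 bases classed retained_intron. Uqcc1 had 95.2% and 91.6%, led by Uqcc1-211 with 40.4% and 42.6%. Cox5b (73.2% and 75.6%), Cox19 (71.4% and 75.2%), Uqcrh (70.5% and 72.2%), Cox7b (71.0% and 69.4%) and Atp5f1 (51.3% and 51.3%) were the others. The shares in the second quantification were 64.7% ± 2.31 for Atp5j, 67.6% ± 3.44 for Cox5b, 65.8% ± 4.60 for Cox19, 62.6% ± 2.55 for Uqcrh and 99.6% ± 0.155 for Cox7b, while those of Uqcc1 (51.5% ± 2.35) and Atp5f1 (43.1% ± 1.18) were lower. TPM shares give short transcripts weight: in Atp5b, 32.6% and 35.2% of the TPM but 8.75% and 9.74% of the counts lay on such transcripts. By counts, Atp5j (89.3% and 90.1%), Uqcc1 (95.5% and 94.5%), Uqcrh (64.7% and 66.4%), Cox7b (53.6% and 51.2%) and Cox5b (50.04% and 52.8%) stayed above 50% in both animals. Cox19 (49.9% and 60.7%) did so in replicate 2 only, and Atp5f1 (45.0% and 45.5%) in neither. The gene levels of these 7 members sum transcripts of all classes.

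**Figure D4:**
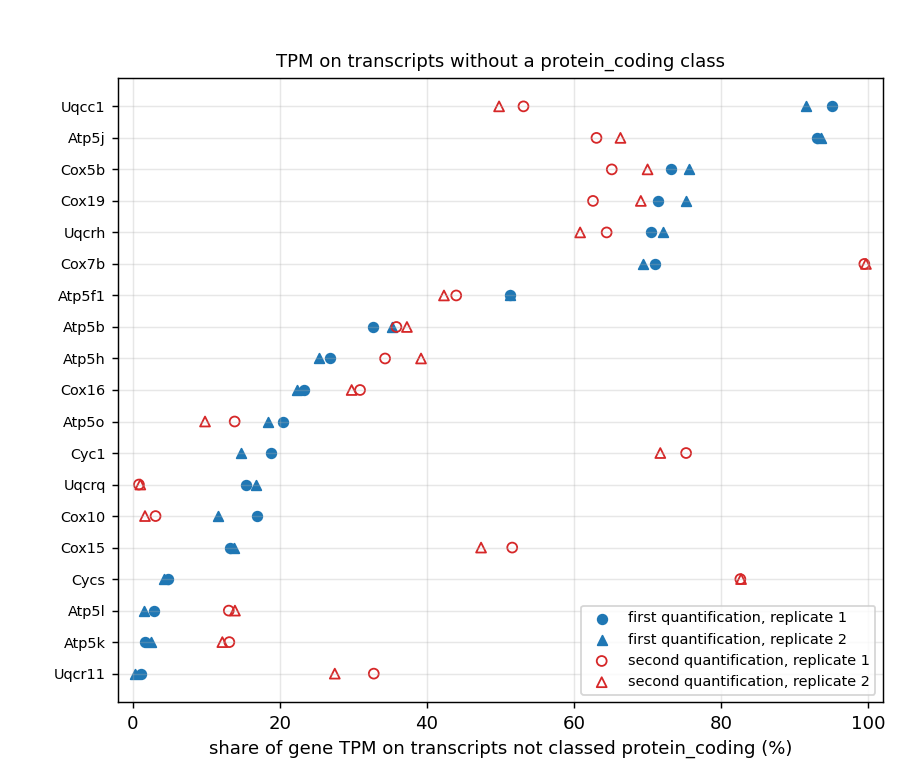
Percent of gene TPM on transcripts not classed protein_coding, for the members where it reached 10% in either quantification, in the first (filled) and second (open) quantification, with replicate 1 as circles and replicate 2 as triangles. Atp5j, Cox5b, Cox19, Uqcrh and Cox7b lie above 50% in both, while Cyc1 and Cycs lie above 50% only in the second.

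Atp5c1, which encodes the gamma subunit, the rotor shaft of F1, has an exon that human heart and skeletal muscle are known to skip. In mouse the exon is 37 bases long and lies on chromosome 2 (10056770 to 10056806 in mm10, minus strand) as exon 9 of Atp5c1-203. Atp5c1-201 lacks it, so the transcripts end in different codons. The bases around the end of exon 8 are shown because they tell the transcripts apart, with the first bases after the junction in capitals:
Atp5c1-201: atctctggggctgctgctctGTAAAGAAGA
Atp5c1-203: atctctggggctgctgctctGGATTAATGA

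The skipping transcript Atp5c1-201 held 97.7% of the gene in replicate 1 and 96.9% in replicate 2 (97.3% ± 0.594), and transcripts with the exon held 1.91% and 2.84%. In the second quantification Atp5c1-201 held 56.8% and 55.4%, and transcripts with the exon 39.4% and 38.2%. The skipping transcript led in both animals and both quantifications, but the size of its lead was set by the quantification. The transcripts also differ at their start, where exon 1 is 80 bases in Atp5c1-201 and 163 bases in Atp5c1-203, and at their 3′ end.

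Between the animals the levels were close. Differences were tested with an exact two-sided binomial test on rounded counts over 14101 genes, with TMM library sizes (a trimmed-mean scaling) and Benjamini-Hochberg adjustment at 0.05. Because it allows for counting noise only, it marks small differences of abundant genes. It called 14 of 45 members, 2 higher in replicate 1 and 12 higher in replicate 2, where 21.2% of all genes were called, 10.6% in each direction. Of the 44 members that averaged at least 100 counts, 0 were 1.5-fold apart, against 3.39% of all 9516 such genes (1.72% higher in replicate 1 and 1.67% higher in replicate 2). The median absolute log2 ratio was 0.07 among members and 0.16 among all genes tested, and the largest of a member was 0.39. These medians are not matched for abundance: 44 of the 45 members averaged at least 100 counts, against 9516 of the 14101 genes.

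The 5 largest absolute ratios among members that averaged at least 100 counts were those of Cox19, Uqcc3, Atp5k, Cox16 and Cox20. Below that limit Atp5g2 had 81.42 and 109.5 counts, with a log2 ratio of -0.29 that was not called. Cox19, which acts in copper delivery to complex IV, held 496 and 420 counts in replicates 1 and 2, with a log2 ratio of 0.39 (adjusted p = 5.6e-04, exact binomial test with Benjamini-Hochberg adjustment). Uqcc3, an assembly factor of complex III, held 441 and 589 counts (log2 -0.27), and Atp5k, a small membrane subunit that helps ATP synthase form dimers, 756 and 1003 (log2 -0.26). Cox16 held 454 and 592 counts (log2 -0.23) in the first quantification, and its ratio changed sign in the second (log2 0.04). Cox20 held 148 and 144 counts, with a log2 ratio of 0.19 that was not called. Cycs, the other member called as higher in replicate 1 with TMM (log2 0.17), was not called with total counts (log2 0.05).

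Among structural subunits, the calls with TMM lay in complex III and ATP synthase. Of the complex III subunits, 4 of 9 were higher in replicate 2 (Uqcr11, Uqcr10, Uqcrc2 and Uqcrc1, log2 -0.15 to -0.07) and 5 were not called. With total counts 8 of the 9 were called as higher in replicate 2. With spike-in totals 6 of the 9 were called as higher in replicate 1 and 0 as higher in replicate 2. Of the 4 called with TMM, Uqcr11 was then not called (log2 -0.00495) and the ratios of the other 3 turned positive. Of the F1 subunits, Atp5c1 (log2 -0.11), Atp5a1 (-0.07) and Atp5b (-0.06) were higher in replicate 2, each changing sign under spike-in totals, and 2 were not called. All 5 F1 subunits were called as higher in replicate 2 with total counts, and 4 as higher in replicate 1 with spike-in totals. In the stalk and membrane group Atp5k, Atp5mpl (-0.14) and Atp5l (-0.12) were higher in replicate 2, and 5 were not called. With spike-in totals Atp5mpl and Atp5l changed sign and Atp5k was not called (log2 -0.11). All 8 of this group were called as higher in replicate 2 with total counts, and 4 as higher in replicate 1 with spike-in totals. Of the 6 complex IV subunits, 0 were called with TMM, but 6 were called as higher in replicate 2 with total counts and 5 as higher in replicate 1 with spike-in totals. Of the 3 c subunit genes, 0 were called with TMM, and 2 with total counts and 2 with spike-in totals, again in opposite directions. With spike-in totals as the scaling, 8 of the 12 members called as higher in replicate 2 had positive ratios. Called or not, 28 of the 45 members had negative ratios with TMM, and 23 of these 28 turned positive. The median over members was then 0.10 where that over all genes was 0.14, against -0.05 and -0.01 with TMM.

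Marker genes of fibre and cell types differed between the same animals. All 12 markers of slow and type 2A fibres were called as higher in replicate 1, with a median log2 ratio of 0.58 and summed levels of 2445 TPM in replicate 1 and 1705 TPM in replicate 2. All 12 fast fibre markers were called as higher in replicate 2, with a median log2 ratio of -0.13 that became 0.02 with spike-in totals, where 6 were higher in each animal. Of 8 endothelial markers, 6 were higher in replicate 2 and 2 were not called (median -0.33, and -0.18 with spike-in totals), and of 8 adipocyte markers 5 were higher in replicate 2, 1 in replicate 1 and 2 were not called (median -0.31, and -0.17 with spike-in totals). None of the markers in these 4 lists was at 0, and their part in the members' ratios was not tested. Of the subunits encoded in the mitochondrion, mt-Co3 held 758 and 1290 TPM (log2 -0.80) and mt-Atp8 1790 and 1315 TPM (log2 0.42); 2 of 6 were called as higher in replicate 1, 3 as higher in replicate 2 and 1 was not called, with mt-Co1 changing sign under total counts and mt-Cytb under spike-in totals. Of the 30 genes outside the rule, 4 were called in each direction with TMM. With total counts 1 was called as higher in replicate 1 and 11 as higher in replicate 2, and with spike-in totals 12 and 1. Of the 4 complex II genes only Sdha was called with TMM (log2 -0.07, and 0.08 with spike-in totals), whereas all 4 were higher in replicate 2 with total counts and all 4 higher in replicate 1 with spike-in totals.

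**Figure D5:**
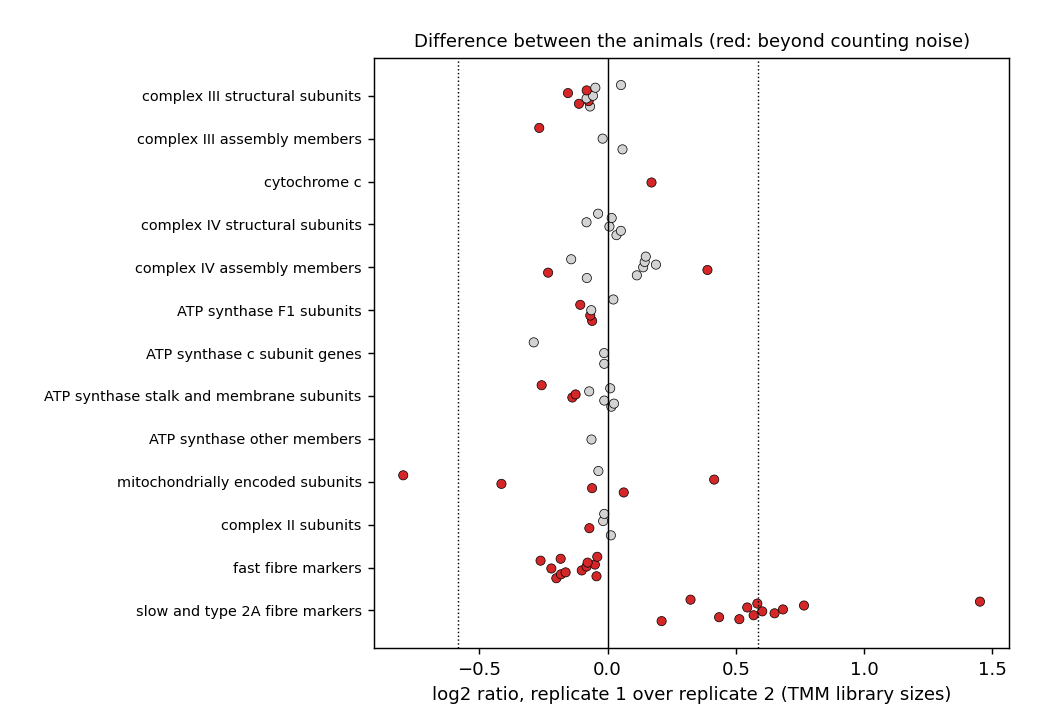
Log2 ratio of replicate 1 over replicate 2 (TMM library sizes) for each gene by role and for 4 comparison lists. Red points were called beyond counting noise and dotted lines mark 1.5-fold: all members lie between -0.29 and 0.39, and the slow and type 2A fibre markers lie to the right.

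Promoter windows from RefSeq (GRCm38.p6, 250 bases before to 50 after the gene start) were matched by gene identifier, symbol or synonym. They were found for 38 of the 49 members and searched on both strands for patterns of factors known to act on respiratory genes. The ETS pattern CCGGAAG, bound by factors such as NRF2 (GABP), was in 13 of the 38 (34.2%), against 9.93% of all 27025 windows and 12.9% of those of protein-coding genes. The longer of the NRF1 patterns was in 8 (21.1%), against 5.19% and 7.17%. The shorter NRF1 pattern TGCGCA, which can overlap it, was in 6 (15.8%), against 8.79% and 11.0%. The YY1 pattern AANATGGC was in 8 (21.1%), against 6.96% and 7.46%, and the ERR pattern TNAAGGTCA in 1 (2.63%), that of Atp5g3, against 1.43% and 1.19%. A match is a description of the window and not a bound site. The comparison windows were not matched to the members for base content or expression level.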

How the data were processed

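Gene and transcript tables of 2 libraries were used, made with mm10 and GENCODE M21 per the deposited README files. The first quantification was made from transcriptome alignments and the second, a transcript table only, from reads and an index. Column names are those written by RSEM and by kallisto, per the file headers. The versions and the strand setting are not given in the sources used here, so overlapping and antisense genes may share reads. Expected counts, as the authors deposited them, estimate reads without normalization. The authors' deposited TPM values are scaled by effective length to the same sum over all entries, spike-ins included. In the first transcript table the percent column, by its deposited header, is each transcript's share of its gene. The interval bounds of TPM, deposited as a score column, and lengths in bases were not tested.

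Spike-ins and 26248 numeric entries stayed out of library sizes (0.257% and 0.308% of counts in replicates 1 and 2). Over 21960 genes the libraries differed by more than sampling noise (chi-square over degrees of freedom, 61.2) and were kept as 2 animals, as labelled. Nothing further says how the samples were kept apart, so spread between them may be partly technical. Counts were rounded for tests and scaled by TMM (edgeR 4.0.16, R 4.3.3). Ratios are replicate 1 over replicate 2 with a prior of 1 count. An exact conditional binomial test was run on genes that averaged at least 10 counts. The 1.5-fold comparison used a mean of 100 or more counts. The test was checked on simulated counts with counting noise only, as the test itself assumes. It called 0.0577% of unchanged genes, 58% of 0.8-fold changes and 96% of 1.5-fold changes. Variation between animals was not simulated, so the check does not cover it. Second-table values were summed per gene. Word uniqueness was the share of a gene's 31-base words that no other gene holds on the same strand. Alternatives included total counts, spike-in totals, size factors of DESeq2 1.42.0, other count minimums and folds, a prior of 5 counts, an assumed biological variation of 0.1, the second quantification, annotated length, a nuclear protein-coding denominator and each animal left out. Other steps used Python 3.11.15, pandas 2.3.3, scipy 1.17.1 and matplotlib 3.10.9.

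The members, the lists and the rule for names were chosen with earlier results of these data known. The rule named all members, up to 4 genes of each other list by TPM, the 5 largest ratios, and dominant transcripts under 60% or differing between quantifications. The copies, the 7 members with mostly noncoding transcripts, mt-Co2, mt-Co3 and the coding windows printed were chosen after values were seen. The other scalings of the marker lists and of calls by role, and the sums with copies, were also chosen after seeing the data.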

Additional observations from a re-analysis of the deposited data

How the results depend on the processing

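No paired analysis was possible because the labels give 1 group of 2 animals. With an animal left out there is no comparison between animals, so only levels and shares were recomputed. Each such value is that of the remaining animal, so it repeats the values per animal and is not a separate check. Leaving out either animal gave medians of 305 to 313 TPM for complex III, 398 to 399 TPM for complex IV and 318 to 327 TPM for ATP synthase. It gave log2 structural over assembly ratios of 2.02 to 2.09 and 4.46 to 4.70, and c subunit shares of 56.7% to 56.8% (Atp5g1), 0.536% to 0.644% (Atp5g2) and 42.6% to 42.7% (Atp5g3). The dominant share ranged from 92.3% to 92.6% and that of Atp5c1-201 from 96.9% to 97.7%.

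In the second quantification the medians were 314.5, 503 and 339 TPM for complexes III, IV and ATP synthase, the log2 ratios 1.94 and 5.26, and the c subunit shares 44.8%, 15.1% and 40.1%. The dominant share was 82.9% and that of Atp5c1-201 56.1%. With a nuclear protein-coding denominator the medians were 711, 918 and 743 TPM. With annotated length the complex IV median was 394 TPM, the log2 ratios 1.87 and 4.34, and the shares of Atp5g1 and Atp5g3 56.0% and 43.4%. With processed copies added, a setting chosen after seeing the data, the c subunit shares were 47.1%, 19.8% and 33.2%. Beyond those set by construction, the cause of these moves was not tested.

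The members called as higher in replicates 1 and 2, 2 and 12 in all, numbered 1 and 34 with total counts, 27 and 0 with spike-in totals, and 0 and 0 in edgeR with biological variation set to 0.1. In the second quantification 4 were higher in replicate 1. Under spike-in totals 23 members in all turned positive, and the log2 ratios of the 8 of them that were called as higher in replicate 2 with TMM were Atp5a1 0.0821, Atp5b 0.0893, Atp5c1 0.0430, Atp5l 0.0248, Atp5mpl 0.0120, Uqcr10 0.0379, Uqcrc1 0.0755 and Uqcrc2 0.0680. In the second quantification that of Cox16 was 0.0441. The count of 0 members 1.5-fold apart and the 7 changes of dominant transcript stayed within the same numbers under the alternatives run for them. With 2 libraries, no estimate of spread between animals was available for a test.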
